A study of Mus musculus with 20 samples.

Results

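The genes described here are 26 genes of GABA signalling, of the 23413 genes in the count tables. They were taken by name and encode GABA-A receptor subunits (14 genes), GABA-B receptor subunits (2), the enzymes and transporter of GABA synthesis and vesicle loading (3), plasma membrane GABA uptake transporters (3), the GABA-degrading enzyme (1), the scaffold protein gephyrin (1) and chloride transporters (2). All 26 are listed in each of the 20 libraries, and 23 of them had enough counts to be tested. RNA came from the frozen brain cortex of 22-month-old APOE4 knock-in mice (APOE4KI in the labels), which carry the human APOE4 gene in place of mouse Apoe. Every group shared this genotype, so no result here separates APOE4 from another APOE allele. The mice ate equal calories of a control diet (CD, called SD in the labels) or of a ketogenic diet (KD) from 10 months of age until tissue was taken 12 months later, after a fast. There were 4 KD and 5 CD females and 6 KD and 5 CD males, with 1 library per mouse, and the comparisons ask in which of these cortical transcripts the diets differ in each sex.

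GABA is the main inhibitory transmitter of the cortex. Inhibitory neurons make it from glutamate with the decarboxylases GAD67 (Gad1) and GAD65 (Gad2), and the vesicular transporter VGAT (Slc32a1) loads it into synaptic vesicles. Released GABA opens the chloride channel of GABA-A receptors, which are pentamers of alpha, beta and further subunits held at synapses by gephyrin (Gphn), or acts on the G-protein-coupled GABA-B receptor, a dimer of Gabbr1 and Gabbr2. Transporters of the Slc6a family return it to cells, and GABA transaminase (Abat) breaks it down. Whether the chloride channel inhibits depends on the chloride gradient, which the importer NKCC1 (Slc12a2) and the neuronal exporter KCC2 (Slc12a5) set. Spiny projection neurons of the striatum are also GABAergic, so these transcripts are not particular to cortical interneurons, and in tissue RNA fewer cells of a type and less RNA per cell cannot be told apart.

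Total counts were from 12207161 to 29109990 per library, and by the E numbers in their labels the libraries form 2 series, 10 in each, that both hold all groups. What these numbers stand for is not stated. Series 1 had 21015275 to 29109990 counts per library and series 2 had 12207161 to 17697342. A floor of 3 counts corresponded to between 0.103 CPM (a gene's counts scaled to a common library total) and 0.246 CPM, which covers counting error only. Xist lay between 319 and 1364 CPM in females and did not exceed 7.59 CPM in any male. Ddx3y, on the Y chromosome, was at 163.5 CPM or more in the males and did not exceed 1.64 CPM in females, except for 14.0 CPM in CD female E228. Mouse Apoe was at 1.33 to 3.34 CPM in all libraries. Markers of cortical excitatory neurons were present in all 20 libraries, but 5 libraries stood apart in markers of the striatum. The 12 markers of striatal spiny neurons summed to 3168, 2753 and 2491 CPM in KD females E207, E61 and E68, to 1141 CPM in CD female E249 and to 3763 CPM in KD male E59, against 239 to 636 CPM in the other 15 libraries. The 8 markers of cortical excitatory neurons summed to 409, 325, 360.5 and 367 CPM in E207, E61, E68 and E249, against 719 to 986 CPM in the other 16. The fourth KD female, E227, lay with the CD females in both sums. Results that rest on E249 or E227 are given with and without them below.

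The 26 genes spanned a wide range of levels. Compared per kb of exon, the highest was Gabrb2, the beta subunit, at 130.3 ± 21.2 CPM per kb (SD, n = 20), followed by Gabbr1 at 95.03 ± 11.8 and Gad1 at 75.7 ± 23.8 CPM per kb. Slc12a5, Gad2, Abat, Gabra3 and Gabra4 followed with mean levels from 52.98 to 36.4 CPM per kb, and the ranges of these 5 genes over the libraries overlapped one another. At the other end, Gabrq, Gabrr2, Gabrr1, Gabre and Gabra6 averaged 0.322 CPM per kb or less. Among the 14 GABA-A subunits listed, Gabrb2 made up 47.5% ± 4.06 (SD, n = 20) of the summed level per kb, Gabra3 14.8%, Gabra4 13.4%, Gabra5 8.45% and Gabrd 6.47%. Other GABA-A subunits were not described here, so these are shares of the listed genes and not of the receptor pool. The steadiest genes across the 20 libraries were Gphn, with a coefficient of variation of 10.5% in CPM, Gabbr1 (12.4%), Gabra3 (13.6%) and Gabra4 (13.9%). Gad2 varied by 83.3%, Slc32a1 by 66.4% and Gabrq by 164%.

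**Figure D1:**
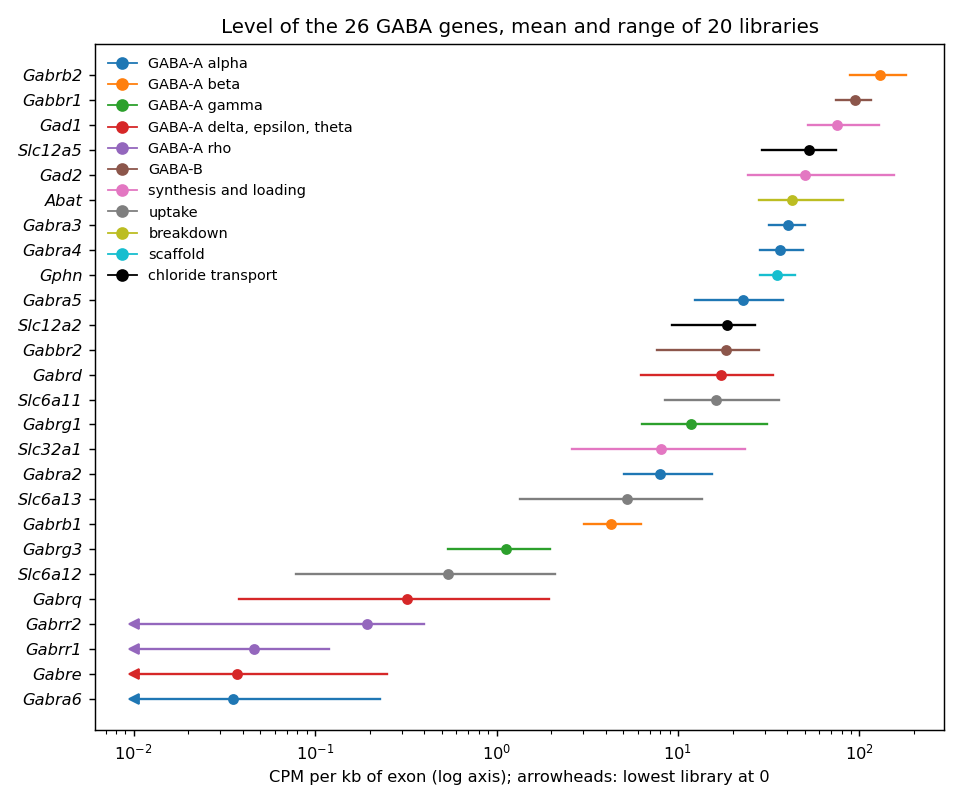
Level of each of the 26 genes in CPM per kb of exon on a log axis, with the dot at the mean and the line from the lowest to the highest of 20 libraries. Gabrb2 lies at the top at 130.3 CPM per kb, and the lines of Gabrr2, Gabrr1, Gabre and Gabra6 reach libraries at 0.

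Many of these genes lie side by side in the genome. In GRCm38, Gabrg1, Gabra2, Gabra4 and Gabrb1 lie in that order on chromosome 5 between 70751047 and 72149037, and Gabra4 and Gabrb1 share 46 bp of exon on opposite strands. Gabre, Gabra3 and Gabrq lie on chromosome X between 72255999 and 72842602, Gabrg3 and Gabra5 on chromosome 7 between 56716465 and 57510059, and Gabra6 and Gabrb2 on chromosome 11 between 42306437 and 42629028. Slc6a13 and Slc6a12 are neighbours on chromosome 6, as are the rho subunit genes Gabrr2 and Gabrr1 on chromosome 4. Members of a cluster did not share a level. On chromosome X, Gabra3 averaged 40.4 CPM per kb, Gabrq 0.322 and Gabre 0.0372.

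Between KD and CD females, 0 of the 23 tested genes passed an FDR of 0.1 with a 1.5-fold change, where 0.0447% of all 15660 tested genes did (edgeR quasi-likelihood F test, Benjamini-Hochberg adjusted). Of the 23, 5 had an unadjusted p under 0.05, all higher on the KD, where 11.4% of all genes met this p and 5.86% met it and were higher. These 5 were Slc32a1, Abat, Gabrq, Slc6a11 and Gad2. In place of the quasi-likelihood test, edgeR's likelihood ratio test and DESeq2 each passed 1 gene, Slc32a1, where they passed 220 and 253 of all 15660 genes. By sign alone 17 were higher and 6 lower, where 52.7% of all genes were higher, and the median log2 fold change was 0.12 against 0.013 over all genes. In males 0 of the 23 passed, as did 0% of all genes, and at an unadjusted p under 0.05 there were also 0 of the 23, where 3.56% of all genes met this p. The likelihood ratio test and DESeq2 also passed 0 of the 23 in males. In males 14 of them were above and 9 below the CD level, where 49.1% of all genes were above, and the median log2 fold change was 0.05 against -0.003 over all genes. In neither sex did the KD and CD libraries separate for any of the 23 genes, where in 1.7% of all genes every KD female was above every CD female and in 0.402% below, and in males 0.102% and 0.115% were. Exact two-sided permutation tests on log2 CPM were run for the 23 genes in both sexes, 46 tests in all, and 0 gave p under 0.05. The smallest p they can give is 0.00794 in females and 0.00216 in males.

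The count in females depended on 2 libraries. Without CD female E249, 6 of the 23 genes passed the threshold (Gabrq, Slc6a11, Abat, Gad2, Slc32a1 and Gabrg1), where 1046 of all 15710 genes tested did. Without KD female E227, 7 did (Slc32a1, Abat, Gabrq, Gad2, Gabbr2, Slc6a11 and Gabra5), where 906 of 15949 did. In both cases Gabrq, Gad2, Slc32a1, Abat and Slc6a11 were higher on the KD. Without E249 the log2 fold change was 3.66 for Gabrq (edgeR adjusted p 0.00952), 1.73 for Gad2 (0.0173), 1.31 for Slc32a1 (0.0246), 0.90 for Abat (0.0136) and 0.90 for Slc6a11 (0.0109). Without E227 it was 2.83 for Gabrq (edgeR adjusted p 0.0339), 1.48 for Gad2 (0.0492), 1.41 for Slc32a1 (0.00702), 0.90 for Abat (0.0119) and 0.80 for Slc6a11 (0.0502). Leaving out any of the other 18 libraries gave 0 genes past the threshold. Both libraries were singled out because their levels were known to stand apart, so the counts without them are descriptions of this dependence.

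**Figure D2:**
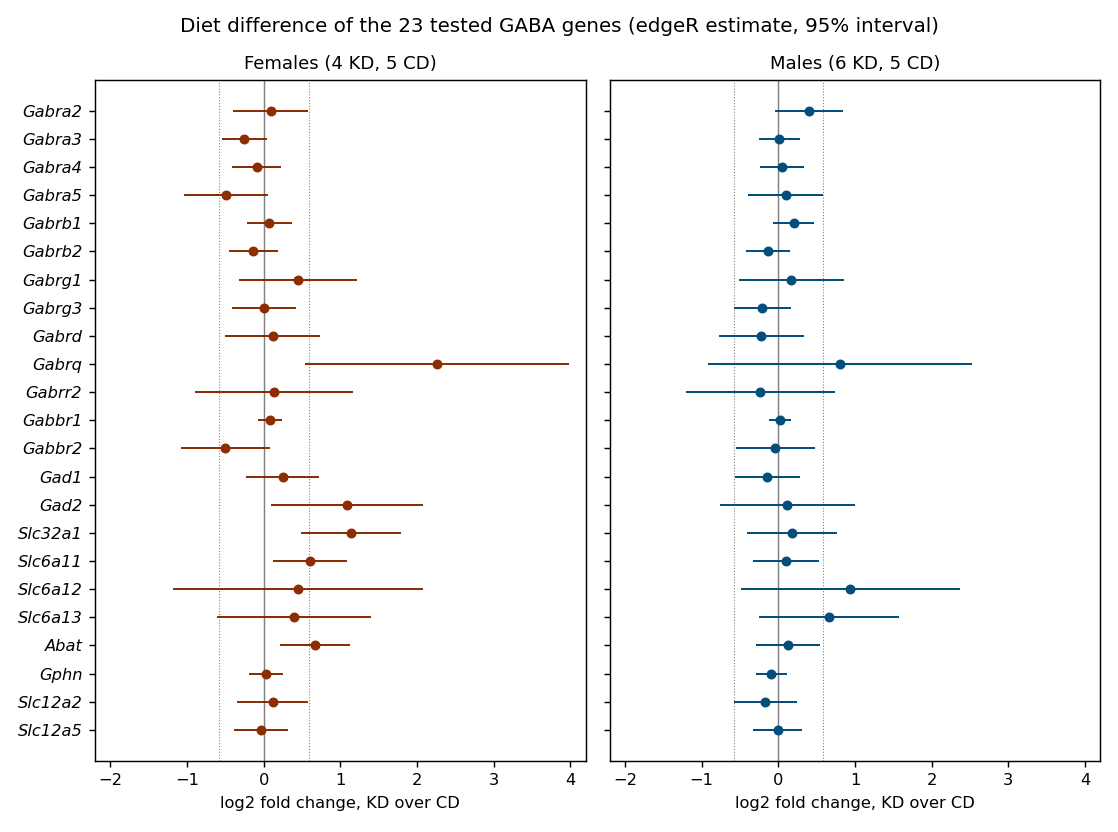
Log2 fold change of KD over CD for each of the 23 tested genes in females and in males, with 95% intervals from edgeR. In females the intervals of Slc32a1, Abat, Gabrq, Slc6a11 and Gad2 lie above 0, and in males all 23 intervals include 0.

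Among the genes of GABA synthesis and vesicle loading, Slc32a1 and Gad2 had the largest estimates in females, at 1.14 and 1.09 on the log2 scale. Sequence before their RefSeq start sites, and that of Gad1, is shown because the study examined cAMP-CREB signalling and these 3 genes define GABAergic neurons. The stretches are on the plus strand of GRCm38.p6 (mm10), from RefSeq promoter windows that run from 250 bases before to 50 after each start, without annotated exon. They are chr2:22622077-22622204 for Gad2, chr2:70561879-70562041 for Gad1 and chr2:158610508-158610757 for Slc32a1. The Gad1 stretch is upstream of the RefSeq start only. In GENCODE the gene starts 9057 bases before the RefSeq start, so the Gad1 stretch lies inside it. A short further stretch of Gad2, chr2:22622282-22622310, holds the TGACG core of the cAMP response element, which is in capitals and reads CGTCA on the printed strand. This core lies 33 bases before the RefSeq start, inside the first exon of the longer GENCODE gene.
Gad2 upstream: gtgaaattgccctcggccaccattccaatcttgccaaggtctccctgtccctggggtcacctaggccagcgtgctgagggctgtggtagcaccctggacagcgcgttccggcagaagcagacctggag
Gad2 core: ccatttcccttcCGTCActctctcatctc
Gad1 upstream: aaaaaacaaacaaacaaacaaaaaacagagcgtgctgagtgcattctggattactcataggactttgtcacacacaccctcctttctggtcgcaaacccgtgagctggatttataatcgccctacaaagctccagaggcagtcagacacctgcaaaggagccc
Slc32a1 upstream: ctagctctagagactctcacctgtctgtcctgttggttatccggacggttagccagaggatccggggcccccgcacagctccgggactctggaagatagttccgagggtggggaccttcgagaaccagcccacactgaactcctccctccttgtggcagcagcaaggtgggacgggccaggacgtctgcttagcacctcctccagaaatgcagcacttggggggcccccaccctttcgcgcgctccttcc
The whole cAMP response element TGACGTCA was in 0 of the 34 windows of the 23 genes that have one, where 1.79% of all 32851 windows hold it on either strand. The core TGACG or CGTCA was in 4 of the 34 windows (11.8%; Gabrb2, Gabrr1, Gad2 and Slc6a12), against 20.8% of all windows. TAATTA, a core that homeodomain proteins bind, was in 1 (Gabrg1; 2.94% against 5.29%), and CAGCTG, an E-box that overlaps none of the other motifs, was in 2 (Slc6a12 and Slc6a13; 5.88% against 16.3%). These are letter matches only.

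Slc32a1 (chromosome 2, 158610767 to 158615748), which encodes VGAT, was at 19.4, 18.6, 13.4, 18.3 and 10.8 CPM in CD females E62, E67, E228, E249 and E265. In KD females it was at 65.3, 46.3, 43.3 and 12.1 CPM in E61, E68, E207 and E227. Thus 3 of the 4 KD females lay above every CD female, and E227 lay within the CD range. Group means were 41.7 ± 22.0 CPM in KD females (SD, n = 4) and 16.1 ± 3.76 CPM in CD females (SD, n = 5), with a log2 fold change of 1.14 (SE 0.31, edgeR adjusted p 0.202, Benjamini-Hochberg; exact permutation p 0.0635). In CD males Slc32a1 was at 26.3, 20.1, 16.4, 10.98 and 12.9 CPM in E51, E58, E66, E251 and E264. The 6 KD males ranged from 7.29 to 41.3 CPM (the highest being E59) with a median of 17.0 CPM, and the groups overlapped. In males the log2 fold change was 0.18 (95% interval -0.41 to 0.76; exact permutation p 0.933). An antisense gene, Gm14205, covers 24.9% of the exon length of Slc32a1, and since the counted strand is not stated, its reads may be included.

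Gad2 (chromosome 2, 22622205 to 22693874) was at 166, 175, 157, 721 and 207.1 CPM in CD females E62, E67, E228, E249 and E265, and at 590.2, 808, 911 and 143 CPM in KD females E61, E68, E207 and E227. A high level was therefore found in 3 KD females and in 1 CD female, E249, while E227 had the lowest level of all 20 libraries. Its log2 fold change was 1.09 (SE 0.47, edgeR adjusted p 0.384; exact permutation p 0.159). In males Gad2 was at 154, 165, 192, 178 and 188 CPM in CD males E51, E58, E66, E251 and E264. On the KD the males ranged from 151 to 331 CPM with a median of 167 CPM, and E59 was the only male above 192 CPM. These male groups overlapped, with a log2 fold change of 0.12 (95% interval -0.76 to 0.996; exact permutation p 0.898).

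Gad1 (chromosome 2, 70553072 to 70602014) showed the same 4 female libraries at the top, with a smaller range. It was at 584, 534, 461, 955 and 532 CPM in CD females E62, E67, E228, E249 and E265, and at 782, 983, 879 and 441 CPM in KD females E61, E68, E207 and E227. Its log2 fold change was 0.25 (95% interval -0.23 to 0.72, edgeR adjusted p 0.777; exact permutation p 0.317), and the groups overlapped. In CD males it was at 502, 514, 580.0, 492 and 505 CPM in E51, E58, E66, E251 and E264. The KD males had a median of 430.3 CPM and ranged from 397 to 688 CPM, with 5 of the 6 below every CD male and E59 above them all. Here the log2 fold change was -0.15 (95% interval -0.57 to 0.28; exact permutation p 0.286).

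Per kb, the ratio of Gad1 to Gad2 was lowest in the libraries that were highest in Gad2. It was 0.742, 0.936 and 1.02 in KD females E207, E68 and E61 and 1.02 in CD female E249. KD male E59, at 1.60, was close to KD male E254 at 1.71. The 15 libraries other than E59 and these 4 females ranged from 1.71 to 2.70. The ratio averaged 1.94 ± 0.254 in KD males (SD, n = 6), 2.29 ± 0.187 in CD males (SD, n = 5), 2.06 ± 0.637 in CD females (SD, n = 5) and 1.27 ± 0.747 in KD females (SD, n = 4). CD female E249, the highest CD library in Gad1 and Gad2, was within the range of the other CD females in Slc32a1.

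**Figure D3:**
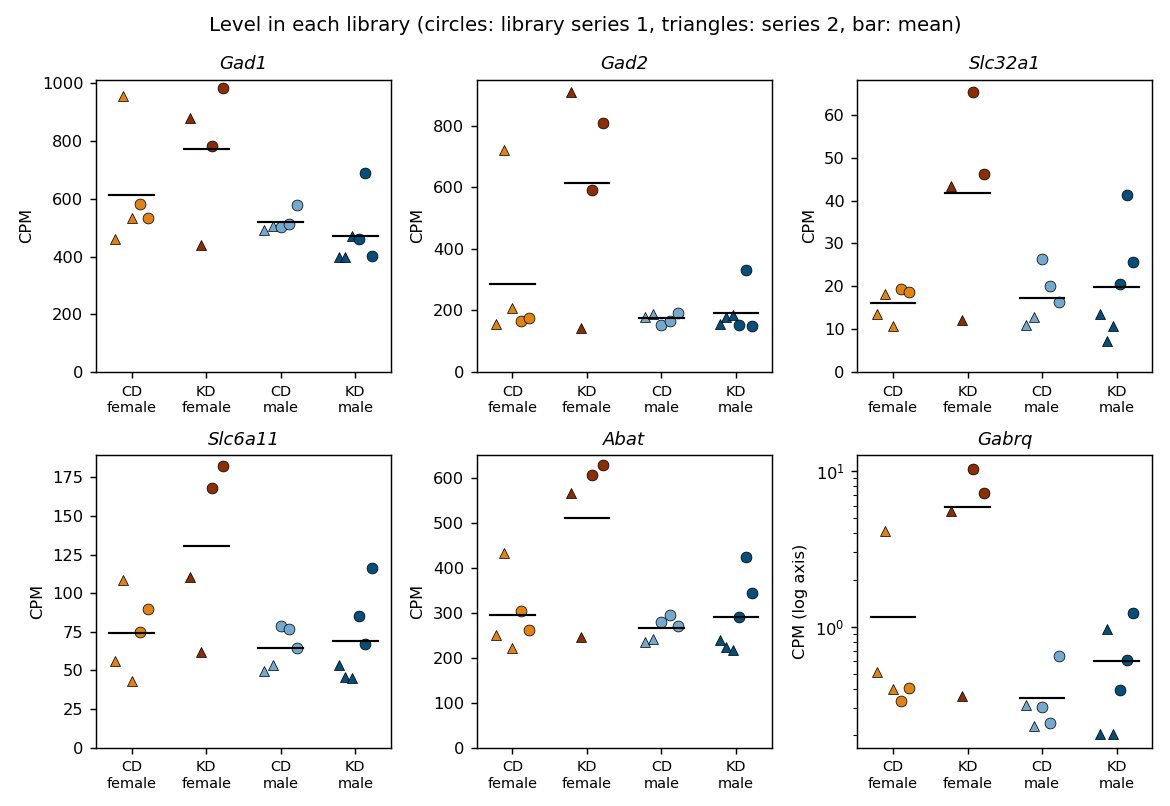
CPM of Gad1, Gad2, Slc32a1, Slc6a11, Abat and Gabrq in each library by group, with circles for library series 1, triangles for series 2 and bars for the mean, and a log axis for Gabrq only. In each panel 1 KD female, E227, lies at or below most CD females, and for Gad1, Gad2 and Gabrq 1 CD female, E249, lies among the KD females.

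Abat (chromosome 16, 8513429 to 8621568), whose product GABA transaminase starts the breakdown of GABA in mitochondria, was at 303, 261, 249.5, 434 and 222 CPM in CD females E62, E67, E228, E249 and E265. In KD females it was at 605, 629, 565 and 245 CPM in E61, E68, E207 and E227. Here again 3 of the 4 KD females lay above every CD female. From means of 511 ± 179 (SD, n = 4) and 294 ± 83.4 CPM (SD, n = 5), the estimate was a log2 fold change of 0.67 (SE 0.22, edgeR adjusted p 0.241; exact permutation p 0.0794). In males Abat was at 280.4, 295, 271, 236 and 242 CPM in CD males E51, E58, E66, E251 and E264, and between 216 and 424 CPM with a median of 265.1 CPM on the KD, again with E59 highest. The groups overlapped, with a log2 fold change of 0.12 (95% interval -0.29 to 0.54; exact permutation p 0.660).

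Slc6a11 (chromosome 6, 114131241 to 114249952), a GABA transporter found mainly in astrocytes, was at 75.0, 89.5, 56.3, 109 and 42.9 CPM in CD females E62, E67, E228, E249 and E265, and at 168, 182, 110.5 and 61.8 CPM in KD females E61, E68, E207 and E227. As for Abat, 3 KD females exceeded all CD females, but E207 exceeded E249 only narrowly. Slc6a11 had a log2 fold change of 0.61 (SE 0.23, edgeR adjusted p 0.311; exact permutation p 0.0952). In CD males E51, E58, E66, E251 and E264 it was at 78.7, 77.1, 64.7, 49.8 and 53.6 CPM. The KD males ranged from 45.4 to 116 CPM with a median of 60.5 CPM, on both sides of the CD males. For males the log2 fold change was 0.10 (95% interval -0.34 to 0.53; exact permutation p 0.918). Sums of 6 astrocyte markers were from 4640 to 6812 CPM over all 20 libraries, and in females 5 of these 6 markers were higher and 1 lower on the KD, by a median of 0.16 on the log2 scale. The part of these markers in the level of Slc6a11 was not tested.

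Slc6a13 and Slc6a12 encode GABA transporters found largely in meninges and other non-neuronal cells. Slc6a13 ranged from 3.91 to 39.4 CPM and Slc6a12 from 0.238 to 6.38 CPM over the 20 libraries. Their log2 fold changes were 0.39 and 0.45 in females and 0.66 and 0.94 in males, and none passed (edgeR adjusted p from 0.854 to 0.9998). For Slc6a13 the highest library was KD male E64, at 39.4 CPM, followed by CD female E249 at 27.8 CPM. The 8 markers of meninges and fibroblasts were also highest in these, at 396 CPM in E64 and 212.8 CPM in E249, and all 8 were higher in KD than in CD females, by a median of 0.22 on the log2 scale. In males all 8 were also higher on the KD, by a median of 0.66, with 2 at an unadjusted p under 0.05 and 0 past the threshold. Their part in the levels of Slc6a13 was not tested.

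In GABA-A receptors, alpha subunits form the GABA-binding site together with beta subunits, and 0 of the 4 tested alpha subunit genes passed the test in either sex. Gabra5, a subunit of mainly extrasynaptic receptors known best from the hippocampus, was at 36.9, 40.9, 37.0 and 82.2 CPM in KD females E61, E68, E207 and E227 and at 58.8 to 78.0 CPM in CD females. Thus 3 KD females were below and 1 above every CD female, with a log2 fold change of -0.49 (95% interval -1.04 to 0.05, edgeR adjusted p 0.502; exact permutation p 0.103). Without E227 it was -0.84, past the threshold (edgeR adjusted p 0.0714). In males Gabra5 was at 57.3 to 78.8 CPM on the CD and 45.2 to 113 CPM on the KD, the highest being E64, in which the hippocampal markers were also highest (124 CPM). Estimates for Gabra3 were -0.25 in females and 0.01 in males on the log2 scale, and Gabra4 of -0.09 and 0.05. For Gabra2 it was 0.09 in females and 0.40 in males (95% interval -0.05 to 0.85), where 4 of the 6 KD males lay above every CD male (exact permutation p 0.0541).

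Estimates for both beta subunits were small. Gabrb2 averaged 844 ± 120.3 CPM in KD females (SD, n = 4) and 914 ± 146 in CD females (SD, n = 5), and 762 ± 137 (SD, n = 6) and 810.2 ± 119 CPM (SD, n = 5) in males, with log2 fold changes of -0.14 in both sexes (95% intervals -0.46 to 0.18 and -0.43 to 0.15). Gabrb1 had log2 fold changes of 0.07 and 0.20. Of the gamma subunits, which link receptors to synapses, Gabrg1 was at 173, 209.8 and 148 CPM in KD females E61, E68 and E207 and at 243 CPM in CD female E249, against 50.1 to 97.1 CPM in the other 16 libraries. Its share of the listed GABA-A subunits per kb averaged 6.71% in KD females, 4.52% in CD females, 2.99% in CD males and 3.47% in KD males. The log2 fold change of Gabrg1 was 0.45 in females (95% interval -0.33 to 1.22, edgeR adjusted p 0.737) and 0.17 in males. In females it was 0.96 without E249, past the threshold (edgeR adjusted p 0.0394), and 0.76 without E227 (adjusted p 0.262). Gabrg3 ranged from 6.48 to 23.4 CPM, with log2 fold changes of 0.00 and -0.21.

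Gabrq (chromosome X, 72825178 to 72842602), which encodes the theta subunit, had the largest estimate of the 23 genes in females and very low levels. It was at 0.333, 0.405, 0.509, 4.096 and 0.397 CPM in CD females E62, E67, E228, E249 and E265, and at 10.4, 7.19, 5.52 and 0.359 CPM in KD females E61, E68, E207 and E227. So 3 of the 4 KD females exceeded every CD female, E249 exceeded the other CD females, and E227 did not. Its log2 fold change was 2.26 (SE 0.82, edgeR adjusted p 0.290; exact permutation p 0.0794). CD males E51, E58, E66, E251 and E264 were at 0.303, 0.24, 0.645, 0.314 and 0.23 CPM, and KD males ranged from 0.203 to 1.22 CPM with a median of 0.501 CPM. The male groups overlapped (log2 fold change 0.80, 95% interval -0.92 to 2.52; exact permutation p 0.299), and E59, high in Gad2 and Slc32a1, was at 0.609 CPM.

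The epsilon subunit gene Gabre, next to Gabra3 on chromosome X, was not tested. It had 24, 16 and 16 counts in KD females E61, E68 and E207 (0.932, 0.689 and 1.18 CPM), from 1 to 5 counts in 7 further libraries and 0 in the other 10. These are the same KD females that were high in Gabrq. The rho subunit gene Gabrr1 had at most 7 counts and the alpha subunit gene Gabra6, which cerebellar granule cells are known for, at most 10, with 0 counts in 4 and 7 libraries, so that no difference was detectable at this depth. Gabrr2 was tested but did not exceed 0.837 CPM. Gabrd, the delta subunit of extrasynaptic receptors, ranged from 18.02 CPM in CD female E249 to 96.1 CPM in KD male E59, with log2 fold changes of 0.12 in females and -0.22 in males.

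Gabbr1, the GABA-binding subunit of the GABA-B receptor, was among the steadiest genes, at 774 ± 91.3 CPM in KD and 695 ± 109 CPM in CD females (SD, n = 4 and n = 5). Its log2 fold changes were 0.08 in females (95% interval -0.08 to 0.23) and 0.02 in males (95% interval -0.12 to 0.16), so a 1.5-fold change lay outside both intervals. Gabbr2, the subunit that couples to G proteins, was at 85.0, 60.1, 64.9 and 134 CPM in KD females E61, E68, E207 and E227 and at 157, 162, 156, 51.5 and 72.1 CPM in CD females E62, E67, E228, E249 and E265. The low libraries were thus 3 KD and 2 CD females, and the log2 fold change was -0.50 (95% interval -1.08 to 0.08, edgeR adjusted p 0.534). Without E227 it was -0.91 (edgeR adjusted p 0.0492). Per kb, Gabbr1 exceeded Gabbr2 by 9.06- to 10.9-fold in E61, E207, E68 and E249, by 6.93-fold in CD female E265, and by 3.86- to 5.56-fold in the other 15 libraries. For Gphn, the scaffold, the log2 fold change was 0.03 in females (95% interval -0.20 to 0.25) and -0.09 in males (95% interval -0.30 to 0.11).

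Of the chloride transporters, Slc12a2, the importer NKCC1, was at 172, 171, 199, 289 and 249.9 CPM in CD females E62, E67, E228, E249 and E265 and at 227.2, 277, 263.7 and 187 CPM in KD females E61, E68, E207 and E227. Its female groups overlapped, with a log2 fold change of 0.12 (95% interval -0.34 to 0.58, edgeR adjusted p 0.921; exact permutation p 0.452). In CD males E51, E58, E66, E251 and E264 it was at 168, 183, 227.99, 211 and 181 CPM. KD males ranged from 101 to 240.2 CPM with a median of 173 CPM, on both sides of the CD males, and the log2 fold change was -0.17 (95% interval -0.58 to 0.24; exact permutation p 0.461).

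Slc12a5 (chromosome 2, 164960802 to 164999731), the neuronal exporter KCC2, was at 499, 438, 424, 216 and 292 CPM in CD females E62, E67, E228, E249 and E265 and at 477, 312, 360.1 and 378 CPM in KD females E61, E68, E207 and E227. All KD females lay within the CD range, and the log2 fold change was -0.03 (95% interval -0.38 to 0.32; exact permutation p 0.786). In males it was at 555, 432, 362, 335 and 377 CPM in CD males E51, E58, E66, E251 and E264, and from 291 to 542 CPM with a median of 423 CPM on the KD. The male groups overlapped, with a log2 fold change of -0.01 (95% interval -0.32 to 0.30; exact permutation p 0.864). Per kb, Slc12a5 exceeded Slc12a2 in every library, from 1.09-fold in CD female E249 to 7.89-fold in KD male E64. The mean ratio was 2.43 ± 0.706 in KD females (SD, n = 4), 2.79 ± 1.34 in CD females (SD, n = 5), 3.78 ± 2.13 in KD males (SD, n = 6) and 3.20 ± 1.03 in CD males (SD, n = 5).

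**Figure D4:**
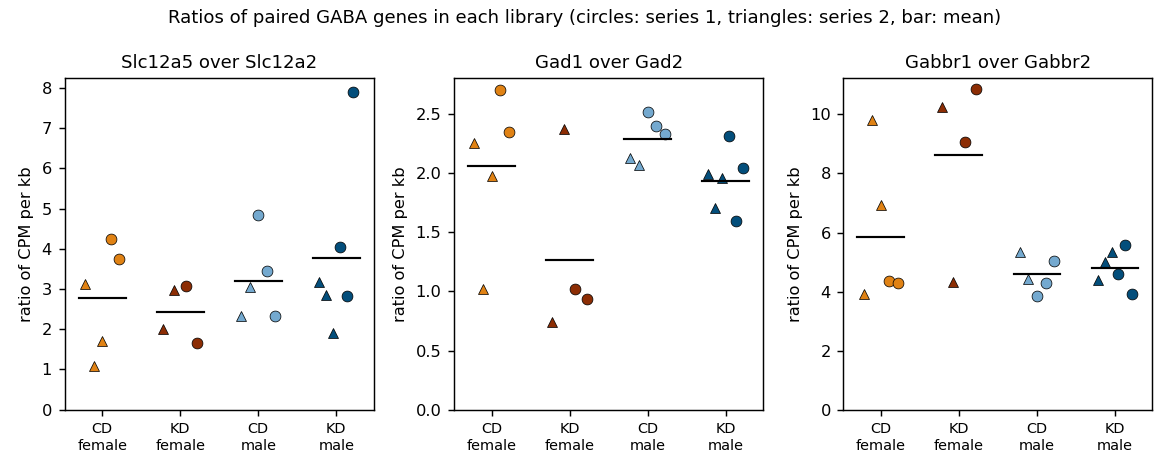
Ratios of CPM per kb in each library by group, with circles for library series 1, triangles for series 2 and bars for the mean. Gad1 over Gad2 is lowest and Gabbr1 over Gabbr2 highest in KD females E61, E68 and E207 and CD female E249, while Slc12a5 over Slc12a2 overlaps between all groups.

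The difference between the sexes in the effect of the diet was tested itself, as an interaction. Of the 23 genes 0 passed the threshold, as did 0% of all genes, and 1 (Slc32a1) met an unadjusted p under 0.05, where 2.14% of all genes did. The effect on Slc32a1 was larger in females than in males by 0.96 on the log2 scale (SE 0.42, p 0.0325, edgeR adjusted p 0.9999). For Gad2 the difference of effects was 0.97 (SE 0.63), for Abat 0.54 (SE 0.30), for Slc6a11 0.51 (SE 0.31) and for Gabrq 1.46 (SE 1.196), each with an edgeR adjusted p of 0.9999. By the likelihood ratio test and by DESeq2 0 of the 23 passed as well. Without E249 and E227 together, 8 of the 23 passed for the interaction, where 568 of all 15943 genes did, and without any single library 0 of those tested did. Averaged over both sexes, the effect of the diet passed in 0 of the 23 genes, where 0.268% of all genes passed. The unadjusted p was under 0.05 in 4 genes, and in 13.9% of all genes, namely Slc32a1 (log2 fold change 0.66, edgeR adjusted p 0.164), Abat (0.40, adjusted p 0.222), Gabrq (1.53, adjusted p 0.230) and Slc6a11 (0.35, adjusted p 0.311). By the likelihood ratio test and by DESeq2 1 gene passed over both sexes, Slc32a1, where 370 and 351 of all genes did. By the quasi-likelihood test 3 passed without E249 or without E227 (Gabrq, Gad2 and Slc32a1), where 791 of 15710 and 668 of 15949 genes did.

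Between females and males over both diets, 0 of the 23 genes passed, where 0.134% of all genes did. At an unadjusted p under 0.05, 8 were higher in females and 2 lower, where 8.59% of all genes were higher and 4.96% lower. The 8 were Gabrq (log2 difference 2.45, edgeR adjusted p 0.134), Slc6a11 (0.62), Gabrg1 (0.91), Gad2 (1.16), Abat (0.52), Gabrg3 (0.43), Gad1 (0.48) and Slc32a1 (0.62), with adjusted p from 0.134 to 0.230. The 2 were Gabra5 and Gabbr2, at -0.42 each (edgeR adjusted p 0.306 and 0.330). The likelihood ratio test passed 4 genes (Gabrg1, Gabrq, Gad2 and Slc6a11) and DESeq2 3 (Gabrg1, Gad2 and Slc6a11), where 286 and 212 of all genes passed. The highest libraries for Gabrq, Gabrg1, Gad1 and Gad2 were the 4 female libraries with high striatal and cholinergic and low cortical excitatory markers, and in none of the 23 genes did the sexes separate, where in 0.0319% of all genes every female was above every male and in 0.0255% below. The number that passed by the quasi-likelihood test was 7 without KD female E227, where 813 of 15949 genes did, and 4 without KD male E59, where 204 of 15504 did. It was 3 without CD female E62 (87 of 15498 genes), 1 without CD female E228 (80 of 15770 genes) and 0 without any of the other 16 libraries.

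Markers of other regions and cell types also differed between libraries and groups. In females all 12 striatal spiny neuron markers were higher on the KD, with a median log2 fold change of 2.13, 10 at an unadjusted p under 0.05 and 0 past the threshold. They summed to 239 to 1141 CPM in CD females, 343 to 3168 in KD females, 264.9 to 636 in CD males and 270.0 to 3763 in KD males. None of the 12 was at 0 in any library, and Drd1a and Drd2, which encode the dopamine receptors that define these neurons, reached 326 and 24.0 CPM. All 6 markers of basal forebrain cholinergic neurons were also higher, with a median log2 fold change of 2.41. Their sum was 123, 132, 160.5 and 104 CPM in E207, E61, E68 and E249, 61.5 CPM in E59 and 0.953 to 6.11 CPM in the other 15 libraries. Chat, the acetylcholine-synthesizing enzyme, was above 0 in all libraries, while Slc18a3, Lhx8 and Isl1 were at 0 in 3, 9 and 8 of them. All 8 cortical excitatory markers were lower in KD than in CD females, by a median of -0.97 on the log2 scale, with 4 at an unadjusted p under 0.05. In males, where 0 of the 23 genes met that p for the diet, all 12 striatal markers were higher on the KD, by a median log2 fold change of 1.28 with 1 at an unadjusted p under 0.05, all 6 cholinergic markers by 2.03 with 0, and all 6 tested choroid plexus markers by 2.12 with 5 (in females 3 of these 6 were higher and 3 lower). The 8 cortical excitatory markers were lower by a median of -0.21 on the log2 scale, with 0 at that p, and 0 of the genes of these lists passed the threshold in males. Among KD males the striatal, cholinergic and choroid plexus sums were highest in E59, at 3763, 61.5 and 2356 CPM. Their medians were 321.5, 2.23 and 29.9 CPM in KD males and 304.6, 2.34 and 25.0 CPM in CD males. Of the 12 cortical interneuron markers, 7 were higher and 5 lower in KD than in CD females, by a median of 0.06 on the log2 scale. At an unadjusted p under 0.05, 2 were higher and 4 lower, with 0 past the threshold. Their sum was from 253 to 470.4 CPM in KD females (median 315) and from 276 to 668 CPM in CD females (median 576).

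When the summed striatal markers were added to the model as a covariate, the log2 fold change in females went from 1.14 to 0.33 for Slc32a1, from 0.67 to 0.09 for Abat, from 0.61 to 0.28 for Slc6a11 and from 2.26 to 0.55 for Gabrq. For Gad2 it went from 1.09 to -0.17 and for Gad1 from 0.25 to -0.29. KD females E61, E68 and E207 exceeded every CD female in the covariate itself, so diet and striatal markers cannot be told apart fully in these mice. In KD male E59 the striatal sum was the highest of all libraries, together with a choroid plexus sum of 2356 CPM against 10.5 to 55.3 CPM in the others. That library was high in Gad2, Slc32a1, Gabra4 and Gabrd and within the range of the other males in Gabrq and Gabrg1. The part of the cholinergic and choroid plexus markers was not tested.

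**Figure D5:**
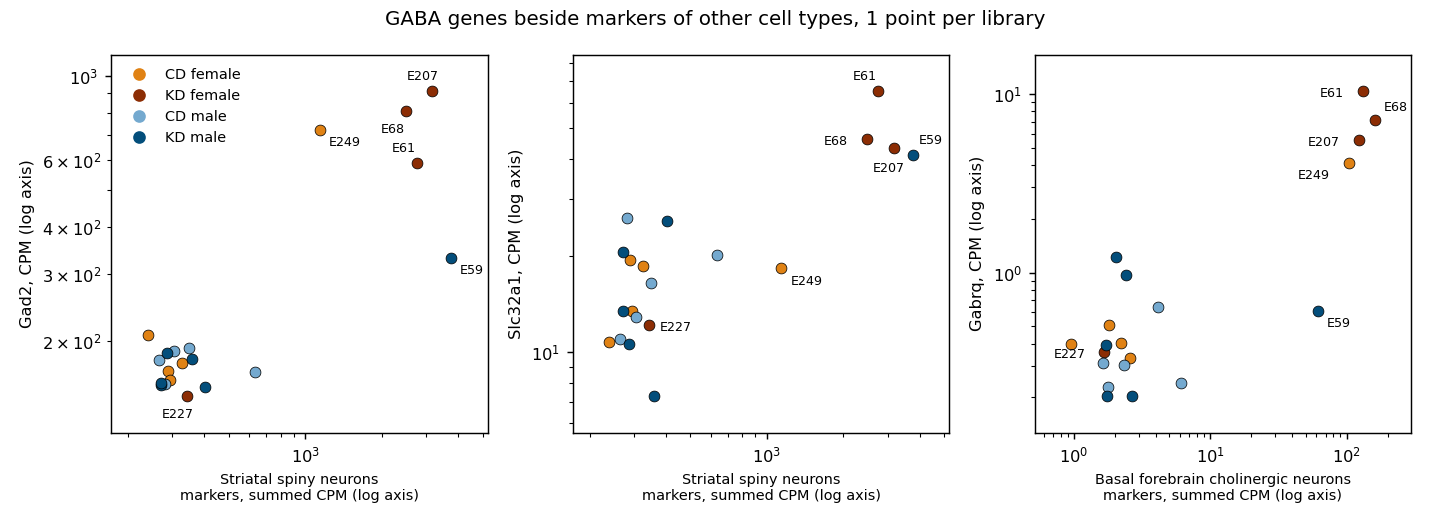
Level of Gad2 and Slc32a1 against the summed CPM of 12 striatal markers, and of Gabrq against that of 6 cholinergic markers, all on log axes with 1 point per library coloured by group. KD females E61, E68 and E207 lie at the upper right of each panel and KD female E227 with most CD females at the lower left. CD female E249 is high in Gad2 and Gabrq but not in Slc32a1, and KD male E59 in Gad2 and Slc32a1 but not in Gabrq.

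The 2 library series gave estimates of different size in females. In series 1 (2 KD and 2 CD females) the log2 fold change was 4.502 for Gabrq, 2.001 for Gad2 and 1.51 for Slc32a1. It was 1.09 for Abat, 1.05 for Slc6a11 and 0.62 for Gad1. Of the 23 genes 7 passed, where 865 of all 15966 genes did. Gad1 did not pass (edgeR adjusted p 0.236). Of those that passed, Gabrq, Gad2, Slc32a1, Abat, Slc6a11 and Gabrg1 were higher on the KD. The other, Gabbr2, was lower, at -1.182 (edgeR adjusted p 0.0135). Series 2 (2 KD and 3 CD females) holds E249 and E227. There the log2 fold changes of Gabrq, Gad2 and Slc32a1 were 0.77, 0.48 and 0.90. For Abat, Slc6a11 and Gad1 they were 0.36, 0.25 and -0.04. Gabrg1 and Gabbr2 had the opposite sign to series 1, at -0.33 and 0.029. In series 2, 0 of the 22 tested passed, as did 0 of all 15458 genes.

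Other genes of GABA metabolism, receptor assembly and trafficking, and chloride regulation were counted from a list of 38, all tested. In females 19 were higher and 19 lower on the KD, with a median log2 fold change of -0.006, and 0 passed the threshold. At an unadjusted p under 0.05 there were 4 higher and 3 lower, where 11.4% of all genes met this p and 5.86% met it and were higher. Among those of smallest p were Kctd8, an auxiliary GABA-B subunit (log2 fold change 0.74, SE 0.20, edgeR adjusted p 0.194), and Hap1, which takes part in the trafficking of GABA-A receptors (1.17, SE 0.46, adjusted p 0.328). In males 17 were higher and 21 lower, with 0 past the threshold, and the 3 of smallest p were Hap1 (0.95), Gls2 (-0.44) and the kinase gene Oxsr1 (-0.21), each with an edgeR adjusted p of 0.9998. Between the sexes 25 were higher and 13 lower in females, with 0 past the threshold. Of these, 9 were higher and 2 lower at an unadjusted p under 0.05, where 8.59% of all genes were higher and 4.96% lower.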

How the data were processed

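Cortex RNA of 20 APOE4 mice was sequenced as stranded total RNA in 50-bp read pairs, 1 library per mouse. The authors used STAR to align reads to mm10 and count them per gene, and the deposited counts are not normalized. The annotation, the counted strand and the version of STAR are not given in the sources used here. Groups came from the labels, as did the 2 series, by the E numbers, which the labels do not explain. In each of the 41 pairs of libraries within a group, the counts differed by more than sampling noise (chi-square over its degrees of freedom between 6.90 and 109).

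CPM were computed, and their log2 with 2 as prior count. Of the genes, 15660 passed filterByExpr and were tested with edgeR 4.0.16 (R 4.3.3), with upper-quartile scaling, the 4 groups and the library series in 1 model over all libraries, robust quasi-likelihood F tests and Benjamini-Hochberg adjustment. A gene passed at an FDR of 0.1 and a 1.5-fold change, the thresholds of the study. The study also used RUVg, with factors and controls not stated, so RUVg was run as an alternative, written anew with all but the 5000 genes of smallest p as controls. At these thresholds the study reported more genes for the diet in each sex than passed in the main model here. The edgeR fit for the diet in females was also run on counts simulated from 1 mean per gene. These counts held no differences between series or in cell types, so they cannot show how the fit handles those. Exact permutation tests ran over all splits of the mice of a sex (126 in females, 462 in males). Exon lengths and coordinates came from GENCODE for GRCm38, and promoter windows from RefSeq GRCm38.p6.

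Alternatives were TMM, the size factors and Wald test of DESeq2 1.42.0, a minimum of 10 counts in every library or no filter, RUVg (1 or 2 factors) or nothing in place of the series, the striatal markers as a covariate, the likelihood ratio test, each sex or series alone, a prior count of 0.5, leaving out each library, and leaving out E249 and E227 together. All 26 genes are named. Of these, Gad1, Gad2, Slc32a1, Slc12a2, Slc12a5 and those at an unadjusted p under 0.05 for the diet in either sex are given library by library, with the 6 KD males as lowest, median and highest. From the 38 further pathway genes the 3 of smallest p in each sex are named, except 1 that is not reported here. The genes, lists and alternatives were chosen with earlier results of these data known.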

Additional observations from a re-analysis of the deposited data

Results flagged for a closer look

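In 108 groups of 4 to 6 libraries, a library was noted where its gap to the nearest other library, as a share of the range of its group, was above Dixon's 95% critical value. This happened 21 times, where chance gives about 1 in 20, or 5.4. The groups are not independent, since the same libraries enter for each gene.

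CD female E249 accounted for 8. It was the highest CD female in Gad2 at 721 CPM (next 207.1 CPM, share of the range 0.912), Gad1 at 955 CPM (next 584, share 0.752), and the sum of Gad1, Gad2 and Slc32a1 at 1694 CPM (next 769, share 0.871). The same held for Gabrq at 4.096 CPM (next 0.509, share 0.953), Gabrg1 at 243 CPM (next 97.1, share 0.772) and Gabra2 at 118 CPM (next 60.8, share 0.796). It was also highest in Slc6a13 at 27.8 CPM (next 13.5, share 0.827) and in Gphn at 167 CPM (next 130.2, share 0.852).

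KD female E227 accounted for 3. It was the highest KD female in Gabra5 at 82.2 CPM (next 40.9, share 0.912) and in the ratio of Gad1 to Gad2 per kb at 2.38 (next 1.02, share 0.831), and the lowest in Abat at 245 CPM (next 565, share 0.834).

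Among the males, KD male E59 was highest in Gad2 at 331 CPM (next 186, share 0.807), Gad1 at 688 CPM (next 473, share 0.740), their sum with Slc32a1 at 1061 CPM (next 669, share 0.794) and Gabrd at 96.1 CPM (next 49.7, share 0.664). KD male E64 was highest in Slc6a13 at 39.4 CPM (next 16.8, share 0.683) and in the ratio of Slc12a5 to Slc12a2 per kb at 7.89 (next 4.05, share 0.641). CD male E66 was highest in Gad1 at 580.0 CPM (next 514, share 0.746), in the summed CPM of Gad1, Gad2 and Slc32a1 at 788 (next 706, share 0.766) and in Gabrq at 0.645 CPM (next 0.314, share 0.798). CD male E264 was highest in Slc6a13 at 23.8 CPM (next 9.28, share 0.731).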

How the results depend on the processing

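Counts of genes past the threshold were 0 of 23 in all 5 comparisons, and stayed at 0 with TMM, DESeq2's size factors, other filters, no series term, RUVg with 1 factor, the striatal covariate, each sex alone and series 2 alone. For the diet in females the count was 1 with RUVg and 2 factors (Gabrq), 1 with the likelihood ratio test and 1 with DESeq2 (Slc32a1 in both), 7 in series 1 alone and 9 without E249 and E227. Over both sexes it was 1 with RUVg and 2 factors, 1 with the likelihood ratio test, 1 with DESeq2, 7 in series 1 alone and 5 without E249 and E227. For the interaction it was 8 without E249 and E227, and between the sexes 4 with the likelihood ratio test, 3 with DESeq2 and 4 without E249 and E227. Leaving out each library gave 0 to 7 for the diet in females, 0 to 3 over both sexes, 0 to 7 between the sexes, and 0 to 0 in males and for the interaction. For the diet in males every alternative gave 0. Over all genes, those past the threshold in females went from 7 to 0 with the striatal covariate or in series 2, and to 34 and 267 with RUVg and 1 or 2 factors, 220 with the likelihood ratio test, 253 with DESeq2, 865 in series 1 and 1953 without E249 and E227. Without E249 and E227 the counts over all 15943 genes were 1249 over both sexes, 568 for the interaction and 516 between the sexes. In series 1 alone 886 of 15966 passed over both sexes, and with RUVg and 2 factors 352 of 15660 did.

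The 2856 estimates for single genes under an alternative include those of genes whose reported estimate was below its own SE. For these a change of sign was not counted, as for Gabra2 in females (log2 fold change 0.09, and -0.01 without E62). The 2856 are therefore not the denominator of the count that follows. Where the reported estimate exceeded its own SE, 10 estimates had the opposite sign to it. With the striatal covariate these were, in females, Gabrg1 (-0.19), Gad1 (-0.29) and Gad2 (-0.17), and Gad2 over both sexes (-0.20). In series 2 alone they were Gabrg1 (-0.33), Gabbr2 (0.029) and Gad1 (-0.0412) in females, Gabrb2 (0.0071) and Slc6a13 (-0.26) in males, and Gabrq in the interaction (-0.0042). Those of Gabbr2, Gad1, Gabrb2 and Gabrq in series 2 were near 0 (unadjusted p from 0.903 to 0.992). The cause was not tested. DESeq2 gave no p for Gabrq in females. With a prior count of 0.5 in place of 2, all 46 exact permutation tests kept their direction and their side of the threshold.

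Leaving out each library moved the log2 fold change in females between 0.78 and 1.41 for Slc32a1, 0.77 and 1.73 for Gad2, 1.81 and 3.66 for Gabrq, 0.49 and 0.90 for Abat, and 0.50 and 0.90 for Slc6a11. In males, leaving out KD male E59 moved it from 0.12 to -0.17 for Gad2 and from 0.18 to -0.06 for Slc32a1. For Gad1 it went from -0.15 to -0.29, for Abat from 0.12 to 0.01 and for Slc6a11 from 0.10 to 0.15. No paired analysis was possible because the replicates are animals and no number is shared between groups. With 4 to 6 mice in a group and 1 tissue sample each, several intervals in females span over 1 log2 unit. Those of Slc32a1, Gad2, Gabrq, Gabrg1 and Gabbr2 are among them. For Gabra6 and Gabrr1 no difference was detectable at this depth, and Gabre did not pass the filter on low counts.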
